A study of Mus musculus with 12 samples.

Results

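The genes described here are 9 markers of monocytes and macrophages: Klf4, Ly6c2, Ccr2, Cx3cr1, Adgre1, Ms4a6c, Lyz2, Mpeg1 and Cd68. They were chosen by name from knowledge of these cells, with earlier results of these data known. They are 9 of 20696 genes with at least 1 read, and all 9 were measured. A low-count filter kept 15012 genes for testing, among them 8 of the 9; Adgre1 had too few reads. Polyadenylated RNA had been sequenced from sorted mouse bone marrow cells of the Lin-Sca-1+Kit+ compartment that lacked Flk2, the gate that holds blood stem cells. The genotypes were Mdmx-Tg/Pu.1-URE-/- (the double mutant), Pu.1-URE-/-, Mdmx-Tg and Wild-type, with 3 libraries each and a separate mouse number for each library. In Pu.1-URE-/- animals the upstream regulatory element (URE) of Spi1 is deleted; Spi1 encodes the transcription factor PU.1. Mdmx-Tg animals carry a transgene for MDMX, the p53 inhibitor encoded by Mdm4. The design sets the transgene against its absence, with and without the element. The promoter of the transgene, the strain and the age of the animals are not given in the sources used here.

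Monocytes arise from stem cells through granulocyte-monocyte progenitors. PU.1 is required for this lineage and, at high dose, favours monocytes over neutrophils, while C/EBP alpha and Gfi1 favour neutrophils. Klf4 acts downstream of PU.1 in monocyte formation. Ly6c2 and Ccr2 mark classical monocytes, Cx3cr1 and Adgre1 mark patrolling monocytes and tissue macrophages, and Lyz2, Mpeg1 and Cd68 encode proteins of phagocytosis and the lysosome. Several of these markers are shared: Lyz2 is abundant in neutrophils too, and Ly6c2 is also made by plasma cells.

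Libraries held 47231506 to 55030235 estimated reads assigned to genes, and 12824 to 14117 genes reached 10 reads. Mdm4 stood at 163 to 353 CPM (counts per 1000000 reads) in double-mutant and 163 to 535 CPM in Mdmx-Tg libraries, against 56.2 to 93.9 CPM in Pu.1-URE-/- and 35.8 to 77.9 CPM in Wild-type libraries, so every transgenic library lay above every other. Spi1 stood at 0.0198 to 3.48 CPM in the double mutant, 8.73 to 23.9 CPM in Pu.1-URE-/-, 3.69 to 21.6 CPM in Mdmx-Tg and 5.34 to 37.98 CPM in Wild-type. Its log2 change without the element was -1.59 ± 0.86 (SE; edgeR adjusted p = 0.270), so total Spi1 reads did not pass the test. The deposited tables hold many isolated zeros: 1816 of 15012 tested genes (12.1%) had 0 reads in 1 library and at least 100 in another of the same genotype, Klf4, Cx3cr1 and Mpeg1 among them. Y-linked genes stood at 199.9 to 222 CPM in double-mutant 1, double-mutant 3 and Wild-type 2, with 1.88 to 5.70 CPM for the remaining 9, so sex was not balanced over genotypes.

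The 9 genes split without the element. Ms4a6c was all but absent in every library that lacked the element and Cd68 was lower on average, while Lyz2 and Ly6c2 were higher on average. Over 6 libraries without the element against 6 with it, 4 of the 8 tested members passed the test (edgeR quasi-likelihood, Benjamini-Hochberg adjusted p under 0.05 over all 15012 genes). The 2 called higher, Lyz2 and Ly6c2, compare with 8.08% of all tested genes called higher; the 2 called lower, Ms4a6c and Cd68, compare with 3.81% called lower. In CPM, no member lay wholly above the libraries with the element (4.89% of all genes did) and 2, Ms4a6c and Cd68, lay wholly below them (1.89% of all genes did). That split depends on the scale. In the deposited TPM (transcripts per 1000000, corrected for length), Ly6c2 lay wholly above and Cd68 overlapped. Ly6c2 stood at 506 to 1593 TPM without the element and 71.1 to 414 TPM with it. The 414 TPM is from Wild-type 1, where 33.2% of reads were immunoglobulin. Recomputed without immunoglobulin genes, the Wild-type mean of Ly6c2 was 465 ± 579 TPM (SD, n = 3), so this separation is not shown to hold there. The median log2 change of the 8 members was -0.46, beside -0.00 for all genes tested. Ms4a6c and Lyz2 alone stayed called without any one of Pu.1-URE-/- 1, Pu.1-URE-/- 2, Mdmx-Tg 2 or Wild-type 2. With Y-linked expression as a covariate 2 were called (Ms4a6c and Lyz2), and 2 (Ms4a6c and Ly6c2) with 3 libraries left out that earlier work had doubted, double-mutant 3, Mdmx-Tg 2 and Wild-type 1. In sorted bulk samples, fewer cells of a type and less RNA per cell cannot be told apart.

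**Figure D1:**
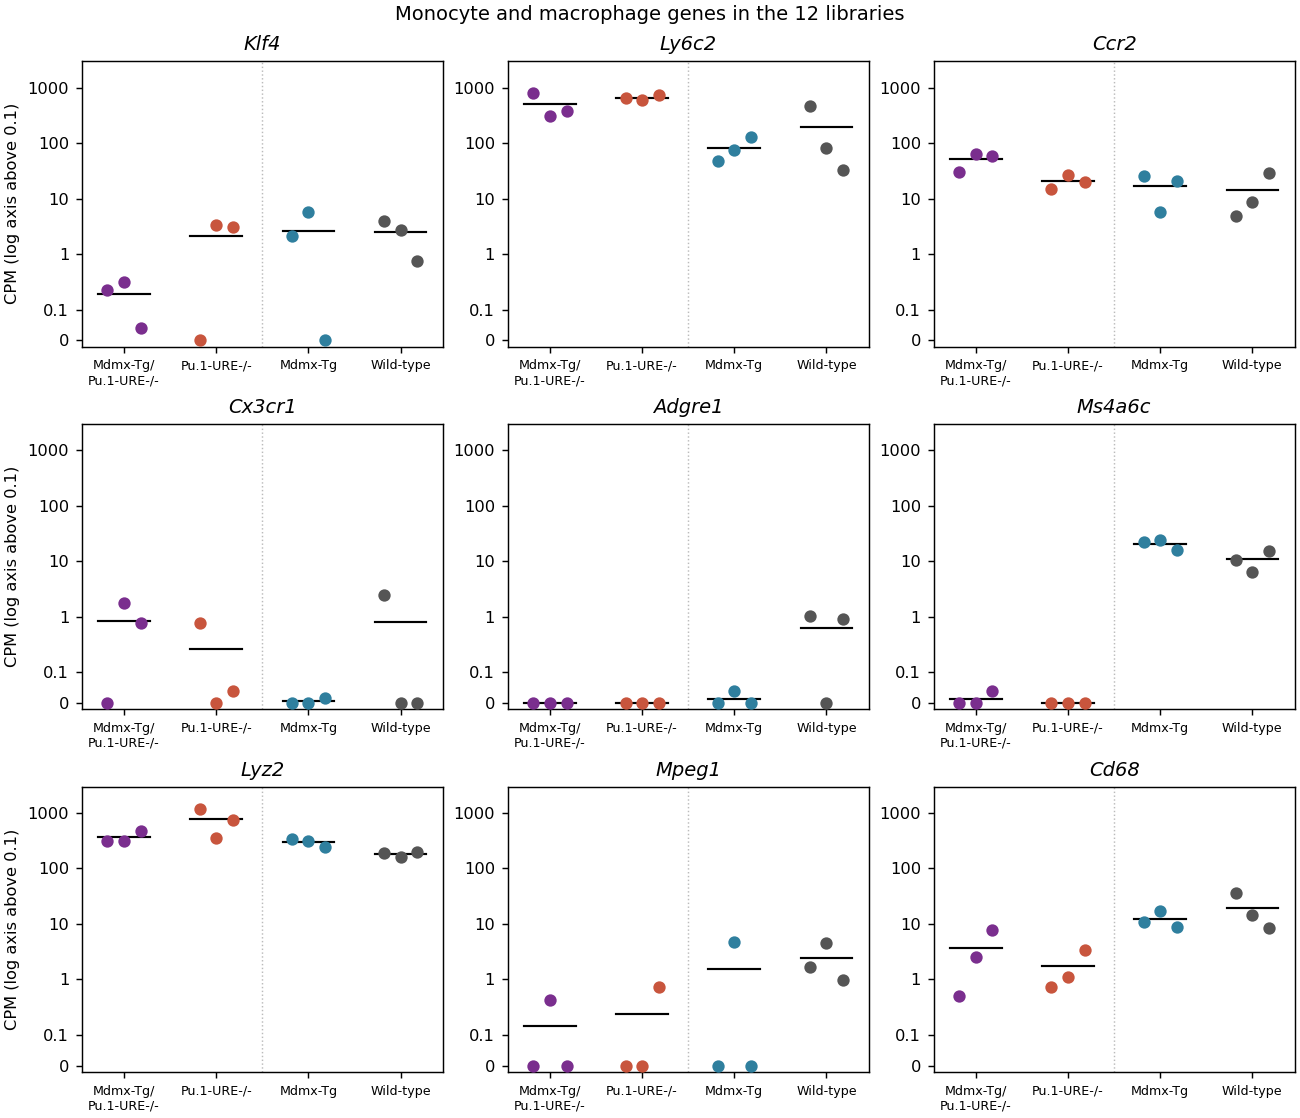
Scaled read counts (CPM, log axis above 0.1) of the 9 genes, 1 point per library and a bar at the mean of 3, with the genotypes lacking the Spi1 element left of the dotted line. On this CPM scale Ms4a6c and Cd68 are lower in all 6 libraries left of the line, Lyz2 and Ly6c2 are mostly higher there, and Klf4, Cx3cr1, Mpeg1 and Adgre1 have libraries at 0.

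Wider marker lists were read beside the gene set. The monocyte list holds the members Ly6c2, Ccr2, Ms4a6c and Klf4, and the macrophage list holds Adgre1. These lists are therefore not an independent check of the members. Summed CPM of 11 monocyte markers was 383.4 to 849 without the element and 114 to 515 with it, and Ly6c2 and Ccr2 held the larger part of it in every library except Wild-type 3. Of these 11 markers, 5 (Csf1r, Ms4a4c, Ms4a6c, Cd14 and Ly86) were at 0 in all 3 Pu.1-URE-/- libraries. The double mutant had reads for 10 of the 11. Ms4a4c was at 0 there and in Mdmx-Tg too. All 11 were tested, and 1 rose (Ly6c2) and 5 fell without the element (Ms4a6c among them), beside 8.08% and 3.81% of all tested genes. Their median log2 change was -4.70, against the direction of the sum. That median is the fitted value of Ms4a4c, which is -3.20 with genotypes at 0 set to 3 reads. Summed CPM of 12 macrophage markers was 7.19 to 17.1 without the element and 6.97 to 26.6 with it, with Marco and Vsig4 at 0 in every library. Of 6 tested, 0 rose and 0 fell, with a median log2 change of -3.16. Mrc1 and C1qa among these had a genotype at 0, so that median is uncertain. Neutrophil markers moved far more: their summed CPM was 24047 to 93478 without the element and 3.30 to 18.1 with it, and 8 of 8 tested rose. Those of granulocyte-monocyte progenitors summed to 10497 to 54535 CPM without the element and 878 to 2563 CPM with it, and 9 of 9 rose. Stem cell markers summed to 456 to 1331 CPM without the element and 1050 to 1780 CPM with it, and of 12 tested, 1 rose and 6 fell. Markers of T cells and NK cells summed to 1546 to 3949 CPM without the element and 97.6 to 325 CPM with it. Of 6 tested, though, only 1 rose and 1 fell, with a median log2 change of -0.51. Those of mast cells and basophils summed to 313 to 832 CPM without it and 185 to 304 CPM with it. Of 8 tested, 1 rose and 2 fell, with a median of -1.40. Markers of B cells and plasma cells, which also make Ly6c2, summed to 133 to 2723 CPM without the element and 434 to 24582 CPM with it. Of 7 tested, 0 rose and 1 fell. The part of these shifts in the results for the 9 genes was not tested.

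**Figure D2:**
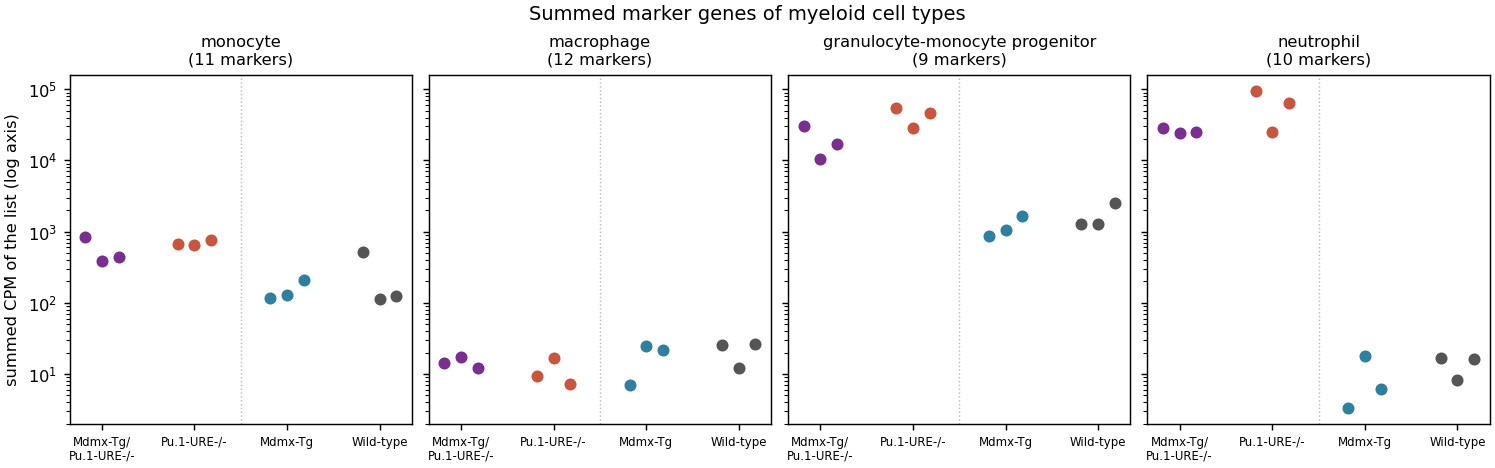
Summed CPM (log axis) of marker genes of monocytes, macrophages, granulocyte-monocyte progenitors and neutrophils, 1 point per library. The neutrophil sum is 24047 to 93478 CPM in the 6 libraries without the Spi1 element and 3.30 to 18.1 CPM in the 6 with it, while the macrophage sum overlaps between them.

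Klf4 (chr4:55527143-55532466, minus strand, GRCm38), a zinc-finger transcription factor needed for inflammatory monocytes, was the only regulator among the 9. It had 11, 17 and 2 reads in double-mutant 1, 2 and 3 and 0, 192 and 156 reads in Pu.1-URE-/- 1, 2 and 3. Mdmx-Tg libraries had 110, 294 and 0 reads and Wild-type libraries 173, 150 and 48. All 3 double-mutant libraries were low, but a Pu.1-URE-/- and a Mdmx-Tg library held none at all, so the groups overlapped. The log2 change without the element was -1.97 ± 1.41 (SE; edgeR adjusted p = 0.420). Double-mutant against Mdmx-Tg libraries gave -3.75 (adjusted p = 0.415).

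Ly6c2 (chr15:75108158-75111970, minus strand) encodes the GPI-anchored surface protein by which classical monocytes are sorted, and by mean TPM it was the most abundant member in every genotype except Mdmx-Tg. It stood at 809, 313 and 383.7 CPM in double-mutant 1, 2 and 3 and at 646, 607 and 728 CPM in Pu.1-URE-/- libraries. It stood at 47.5, 73.8 and 127 CPM in Mdmx-Tg 1, 2 and 3 and at 472, 82.5 and 32.7 CPM in Wild-type libraries. All libraries without the element were high. In CPM, Wild-type 1 alone among the others was as high, and it overlapped the double mutant only. The mean was 581 ± 195 CPM without the element and 139 ± 166 CPM with it (SD, n = 6 each). The log2 change was 2.18 ± 0.56 (SE; edgeR adjusted p = 0.0309).

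That call stood near its threshold. It was lost, at adjusted p = 0.0507 to 0.0865 and log2 changes of 1.86 to 2.19, without any one of 7 libraries: double-mutant 1, Pu.1-URE-/- 1, Pu.1-URE-/- 2, Pu.1-URE-/- 3, Mdmx-Tg 1, Mdmx-Tg 2 or Wild-type 2. It was also lost with the series of the mouse numbers as a block (2.13; adjusted p = 0.0501). Wild-type 1 was also the library with most immunoglobulin reads, 33.2% of the total against 0.144% to 11.9% in the other 11. With immunoglobulin genes left out the log2 change was 2.12 (adjusted p = 0.0295). Within genotype pairs Ly6c2 lay wholly above its counterpart but missed the threshold, at 2.60 ± 0.81 (adjusted p = 0.144) for double-mutant against Mdmx-Tg and 1.75 ± 0.79 (adjusted p = 0.247) for Pu.1-URE-/- against Wild-type libraries. Both passed without Wild-type 1, at 2.54 (adjusted p = 0.0295) and 3.52 (adjusted p = 0.0143).

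Ly6c2 has a close copy, Ly6c1, which is known from endothelium. The 2 coding sequences have the same length, 393 bases, and differ at 9 of them (97.7% identity), 6 within the first 90. Those 90 bases of the main transcripts (GENCODE M21) are shown because reads that miss such positions cannot be assigned to 1 of the copies; capitals mark the bases that differ.
Ly6c2-201: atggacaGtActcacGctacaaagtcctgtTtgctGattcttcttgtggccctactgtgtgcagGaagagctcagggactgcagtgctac
Ly6c1-202: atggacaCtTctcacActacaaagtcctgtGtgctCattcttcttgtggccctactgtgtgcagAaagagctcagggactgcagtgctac
Over whole transcripts, 21.4% of the 31-base words of Ly6c2 also occur in Ly6c1. Ly6c1 was the lower of the pair in every library, with a ratio of Ly6c2 to Ly6c1 between 1.81 and 10.01 in TPM. Its own log2 change without the element was 1.54 ± 0.73 (SE; edgeR adjusted p = 0.206). How the reads are divided between the copies is therefore uncertain.

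**Figure D3:**
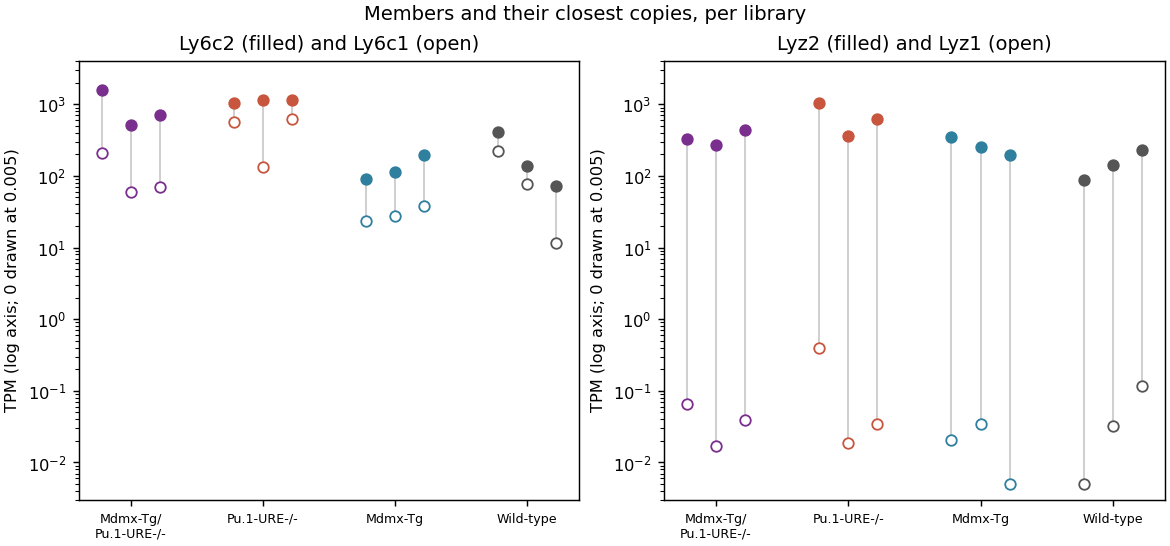
Length-corrected level (TPM, log axis, 0 drawn at 0.005) of Ly6c2 and Lyz2 (filled) and of their closest copies Ly6c1 and Lyz1 (open), joined for each of the 12 libraries. Ly6c2 exceeds Ly6c1 by 1.81 to 10.01 times, and Lyz1 is near 0 beside Lyz2 in every library.

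Ccr2 (chr9:124101950-124113557, plus strand), the chemokine receptor that lets monocytes leave the marrow, stood at 30.5, 63.5 and 58.4 CPM in double-mutant libraries and at 14.8, 26.7 and 20.3 CPM in Pu.1-URE-/- libraries. Mdmx-Tg libraries had 25.04, 5.81 and 20.6 CPM and Wild-type libraries 4.90, 8.64 and 28.5 CPM. In CPM all 3 double-mutant libraries lay above every library of the other genotypes, but in TPM double-mutant 1 (10.7) lay below Wild-type 3 (11.3). The mean was 35.7 ± 20.4 CPM without the element and 15.6 ± 10.4 CPM with it (SD, n = 6 each), and the log2 change of 1.06 ± 0.47 (SE) did not pass the test (edgeR adjusted p = 0.171). It passed only without Wild-type 3, at 1.53 (adjusted p = 0.0486), among the single libraries left out. Double-mutant against Pu.1-URE-/- libraries gave 1.30 ± 0.66 (adjusted p = 0.508).

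Cx3cr1 (chr9:119901616-120069879, minus strand), the fractalkine receptor, had 0, 95 and 39 reads in double-mutant libraries and 37, 0 and 2 reads in Pu.1-URE-/- libraries. Mdmx-Tg libraries had 0, 0 and 1 reads and Wild-type libraries 109, 0 and 0. Each genotype held libraries at 0 beside libraries with reads, and the log2 change without the element was 2.51 ± 1.88 (SE; edgeR adjusted p = 0.444). Adgre1 (chr17:57358691-57483527, plus strand), which encodes the macrophage antigen F4/80, had 0 reads in all 6 libraries without the element. It had 0, 2 and 0 reads in Mdmx-Tg libraries and 45, 0 and 59 reads in Wild-type libraries. Of the 106 reads with the element, 104 came from Wild-type 1 and Wild-type 3, and 1 Wild-type library was at 0 like those without the element. In the transgenic background 0 reads stood against 2, which gives no fold, and no test was made.

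Ms4a6c (chr19:11469366-11482192, plus strand), a membrane protein of the MS4A family found on monocytes, showed the widest separation of the 9. It had 0, 0 and 2 reads in double-mutant 1, 2 and 3 and 0 reads in all 3 Pu.1-URE-/- libraries. Mdmx-Tg libraries had 1164, 1222 and 889 reads and Wild-type libraries 475, 354 and 998. Every library without the element lay below every library with it; a count of 0 allows up to 3 reads. The mean was 0.00661 ± 0.0162 CPM without the element and 15.8 ± 6.68 CPM with it (SD, n = 6 each). As a ratio of summed reads scaled to library size, Ms4a6c was 2446-fold lower without the element (95% counting interval 677 to 20206; edgeR adjusted p = 9.86e-05). The same held within each background: double-mutant libraries were 1586-fold lower than Mdmx-Tg libraries (439 to 13105; adjusted p = 0.00284) and Pu.1-URE-/- libraries at least 578-fold lower than Wild-type libraries (adjusted p = 0.00145). The fall without the element passed without each of the 12 libraries in turn (adjusted p = 0.000241 to 0.000492). These intervals cover counting error only.

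Both transcripts of Ms4a6c were affected. The coding Ms4a6c-201 carried 52.5% of the gene's reads, with 0 to 2.11 reads per library without the element and 230 to 750 with it. The retained-intron Ms4a6c-202 carried 47.5%, with 0 reads in each library without the element and 123 to 907 with it. Of the 2050 exonic bases of the whole Ms4a6c gene, 1088 are shared with the antisense gene BE692007. Whether strand was used in counting is not given in the sources used here, so sense and antisense reads cannot be told apart. The neighbouring copies, Ms4a6b and Ms4a6d, share 13.9% and 0.941% of the 31-base words of Ms4a6c. Both had log2 changes below 0 that did not pass, at -2.45 ± 0.97 (SE; edgeR adjusted p = 0.128) for Ms4a6b and -3.61 ± 1.71 (adjusted p = 0.203) for Ms4a6d. Ms4a6b kept 0 to 467 reads without the element, against 405 to 1199 with it.

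Lyz2 (chr10:117277331-117282321, minus strand) encodes lysozyme, the secreted enzyme that cuts bacterial cell walls. It stood at 318, 314 and 475 CPM in double-mutant 1, 2 and 3 and at 1201, 359.8 and 753 CPM in Pu.1-URE-/- libraries. It stood at 343, 312 and 239 CPM in Mdmx-Tg libraries and at 189, 164 and 202 CPM in Wild-type libraries. Every Pu.1-URE-/- library lay above every library with the element, whereas the double mutant overlapped Mdmx-Tg. Mean CPM was 570 ± 350 without the element and 242 ± 71.8 with it (SD, n = 6 each), a log2 change of 1.18 ± 0.25 (SE; edgeR adjusted p = 0.0129). Pu.1-URE-/- exceeded Wild-type 4.17-fold (log2 change 2.06 ± 0.37, adjusted p = 0.00928). Without Wild-type 2 this was 1.98 with an adjusted p of 0.0565, and without the 3 doubted libraries the change over 6 against 6 was 1.07 with an adjusted p of 0.0980. Double-mutant against Mdmx-Tg libraries gave 0.31 ± 0.35 (adjusted p = 0.746). Neutrophil markers, given above, were higher in both genotypes without the element. In the double mutant, where Lyz2 overlapped Mdmx-Tg, they summed to 24047 to 28586 CPM, against 3.30 to 18.1 CPM in Mdmx-Tg. Their part in the Lyz2 values was not tested.

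The copy of Lyz2, Lyz1, is the lysozyme of Paneth cells in the gut. The coding sequences differ at 22 of 444 bases (95.05% identity), 7 of them in the first 90, shown for the same reason and with capitals as before.
Lyz2-201: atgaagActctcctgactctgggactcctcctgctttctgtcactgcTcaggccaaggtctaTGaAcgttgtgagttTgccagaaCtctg
Lyz1-201: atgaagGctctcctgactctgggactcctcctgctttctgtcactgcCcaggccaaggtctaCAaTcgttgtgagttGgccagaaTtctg
Lyz2 and Lyz1 share 32.8% of the 31-base words of Lyz2, yet Lyz1 had 0 to 21 reads in a library and Lyz2 took at least 99.95% of their summed TPM. The assignment of these reads to Lyz2 was therefore nearly complete in all 12 libraries.

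Mpeg1 (chr19:12460779-12465283, plus strand) encodes perforin-2, a pore-forming protein of phagocytes. It had 0, 23 and 0 reads in double-mutant libraries and 0, 0 and 37 reads in Pu.1-URE-/- libraries. Mdmx-Tg libraries had 0, 239 and 0 reads and Wild-type libraries 73, 251 and 63. Wild-type was the only genotype with reads in all 3 libraries, and all 3 lay above Pu.1-URE-/-. The log2 change without the element was -3.36 ± 2.07 (SE; edgeR adjusted p = 0.338), and without Mdmx-Tg 2 it was 1.33 (adjusted p = 0.663), so no direction can be given.

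Cd68 (chr11:69664213-69666153, minus strand), a lysosomal membrane glycoprotein of macrophages, stood at 0.502, 2.57 and 7.91 CPM in double-mutant 1, 2 and 3 and at 0.736, 1.11 and 3.37 CPM in Pu.1-URE-/- libraries. It stood at 11.02, 17.4 and 8.93 CPM in Mdmx-Tg libraries and at 36.2, 14.4 and 8.50 CPM in Wild-type libraries. In CPM all 6 libraries without the element lay below all 6 with it, double-mutant 3 and Wild-type 3 being the nearest. In TPM the groups overlapped: double-mutant 3 (11.7) lay above Mdmx-Tg 3 (8.28) and Wild-type 3 (11.54). The mean was 2.70 ± 2.79 CPM without the element and 16.1 ± 10.4 CPM with it (SD, n = 6 each), and the log2 change was -2.63 ± 0.68 (SE; edgeR adjusted p = 0.0306). The call was lost, at adjusted p = 0.0528 to 0.0795 and log2 changes of -2.72 to -2.27, without any one of double-mutant 2, Pu.1-URE-/- 1, Pu.1-URE-/- 2, Mdmx-Tg 2, Wild-type 1 or Wild-type 2. Within pairs, Cd68 had log2 changes of -1.77 ± 0.93 (adjusted p = 0.369) for double-mutant against Mdmx-Tg and -3.50 ± 1.00 (adjusted p = 0.0756) for Pu.1-URE-/- against Wild-type libraries. The coding Cd68-201 carried 86.8% of the reads, with 1.33 to 278 per library without the element and 481 to 1440 with it.

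**Figure D4:**
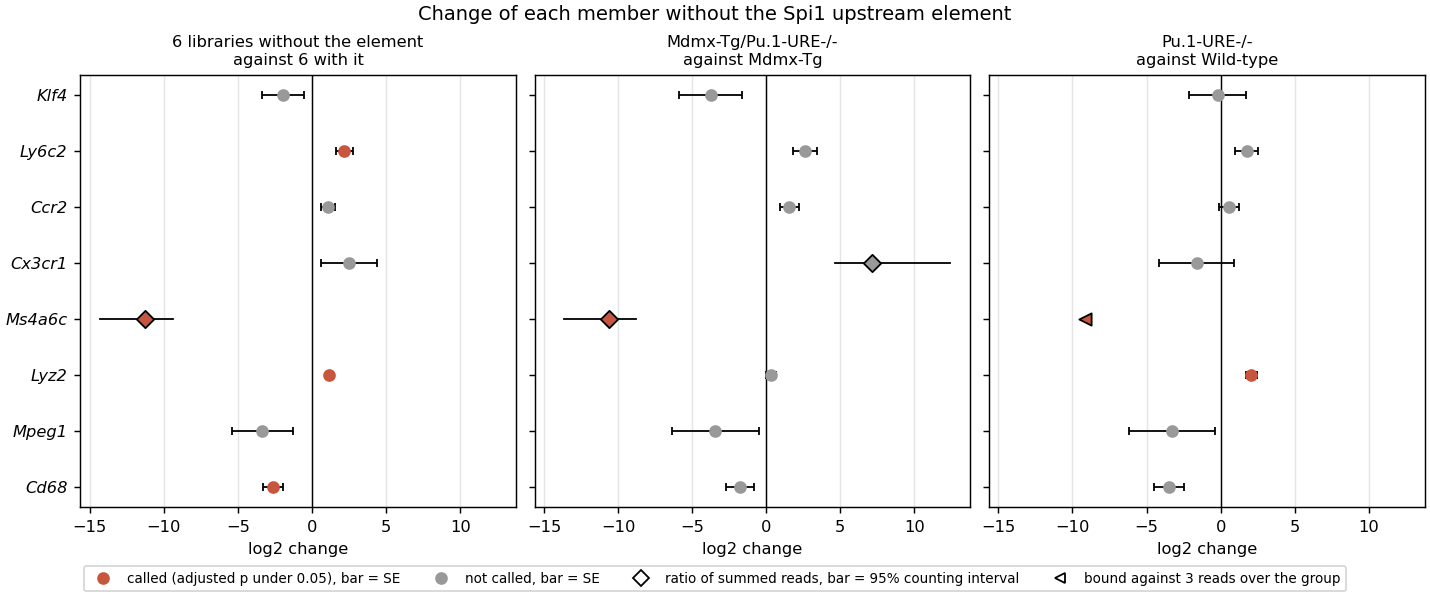
Log2 change of the 8 tested genes without the Spi1 element, over 6 against 6 libraries, for the double mutant against Mdmx-Tg and for Pu.1-URE-/- against Wild-type. Red marks genes called at an adjusted p under 0.05 and grey those not called; circles are fitted changes with their SE, diamonds ratios of summed reads with a 95% counting interval, and triangles bounds against 3 reads. Ms4a6c is called lower in all 3 panels, and Lyz2 is called higher in the 6 against 6 and Pu.1-URE-/- panels.

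Taken by genotype pair, fewer members passed. For Pu.1-URE-/- against Wild-type libraries, 1 member was called higher (Lyz2; 3.84% of all genes were) and 1 lower (Ms4a6c; 0.866% of all genes were). In CPM, Lyz2 and Ly6c2 lay wholly above Wild-type, beside 15.9% of all genes, and Ms4a6c, Cd68 and Mpeg1 lay wholly below, beside 13.7%. For double-mutant against Mdmx-Tg libraries, 0 members were called higher by edgeR (1.67% of all genes were) and 1 lower (Ms4a6c; 0.646% of all genes were). At an unadjusted p under 0.05, which 2538 of the 15012 genes had, Ly6c2 and Ccr2 were higher too. DESeq2, which called 1273 genes against 348 by edgeR, called Ly6c2 (adjusted p = 0.0333), while limma-voom called Ms4a6c alone. In CPM, Ly6c2 and Ccr2 lay wholly above Mdmx-Tg, beside 11.9% of all genes, and Ms4a6c and Cd68 wholly below, beside 7.25%; Cd68 overlapped in TPM. The median log2 change of the 8 tested members was -0.90 in Pu.1-URE-/- against Wild-type and -0.73 in double-mutant against Mdmx-Tg libraries, beside -0.03 and 0.03 for all genes.

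Sequences just upstream of the genes that passed are shown because the deleted element controls the gene of PU.1, which binds purine-rich DNA around a GGAA core. The 250 bases before the RefSeq start of each gene (GRCm38.p6, read along the gene's strand) were searched on both strands for short sites. These were GAGGAA, the PU box, GGAAGT, a form of the ETS-family site, and TTNNGNAA, a loose C/EBP site. GAGGAA and GGAAGT overlap in GAGGAAGT. RefSeq starts can differ from the GENCODE gene spans given above. The windows of Lyz2 and Ms4a6c end within those spans. Capitals mark GAGGAA and GGAAGT or their reverse complements. For Ly6c2 the table has 2 starts, and the upstream one is shown.
Ms4a6c, chr19:11469118-11469367, plus strand: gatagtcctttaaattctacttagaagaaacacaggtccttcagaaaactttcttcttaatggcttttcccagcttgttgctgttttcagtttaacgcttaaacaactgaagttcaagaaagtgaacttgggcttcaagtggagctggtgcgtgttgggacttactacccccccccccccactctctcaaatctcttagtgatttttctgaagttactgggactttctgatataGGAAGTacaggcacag
Cd68, chr11:69666171-69666420, minus strand: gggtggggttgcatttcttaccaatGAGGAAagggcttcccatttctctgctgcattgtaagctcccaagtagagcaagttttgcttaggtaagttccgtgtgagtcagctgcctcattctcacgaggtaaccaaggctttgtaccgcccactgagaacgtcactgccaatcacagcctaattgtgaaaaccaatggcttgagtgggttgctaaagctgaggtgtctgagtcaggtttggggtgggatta
Lyz2, chr10:117282273-117282522, minus strand: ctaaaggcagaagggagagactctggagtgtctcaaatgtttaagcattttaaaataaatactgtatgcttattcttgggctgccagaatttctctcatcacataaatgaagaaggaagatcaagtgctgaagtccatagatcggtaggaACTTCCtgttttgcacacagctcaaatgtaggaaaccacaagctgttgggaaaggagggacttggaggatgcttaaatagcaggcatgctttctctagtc
Ly6c2, chr15:75111972-75112221, minus strand: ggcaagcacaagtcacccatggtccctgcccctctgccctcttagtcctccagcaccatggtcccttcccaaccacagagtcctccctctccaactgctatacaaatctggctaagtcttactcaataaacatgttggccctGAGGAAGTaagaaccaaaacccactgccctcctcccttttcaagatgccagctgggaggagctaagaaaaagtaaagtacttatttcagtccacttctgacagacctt
Of 8 members with a sequence, 2 held GAGGAA (Cd68 and Ly6c2), beside 23.3% of 32851 promoters of the same length. There were 3 with GGAAGT (Lyz2, Ly6c2 and Ms4a6c), beside 19.7% of promoters, and 5 with TTNNGNAA, beside 36.8%. Genes that rose and genes that fell both held such letters, which are common, and a match is not evidence of binding.

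Levels of the genes, compared per length as TPM, were dominated by Lyz2 and Ly6c2. Together they made 97.3% to 99.7% of the 9 genes' summed TPM in libraries without the element, against 85.4% to 94.3% with it. In the double mutant the order was Ly6c2 (932 ± 581 TPM), Lyz2 (348 ± 86.4), Ccr2 (15.2 ± 3.96) and Cd68 (5.72 ± 5.36), with the other 5 under 1 TPM on average. In Pu.1-URE-/- it was Ly6c2 (1121 ± 64.4 TPM), Lyz2 (674 ± 338), Ccr2 (5.99 ± 2.07) and Cd68 (2.19 ± 1.41). In Mdmx-Tg it was Lyz2 (264 ± 78.0 TPM), Ly6c2 (133 ± 55.1), Ms4a6c (30.3 ± 15.3), Cd68 (12.6 ± 4.62) and Ccr2 (4.98 ± 3.597). In Wild-type it was Ly6c2 (207 ± 182 TPM), Lyz2 (153 ± 73.1), Cd68 (16.7 ± 4.84), Ms4a6c (14.1 ± 11.8) and Ccr2 (4.85 ± 5.66; SD, n = 3 for each value). Recomputed without immunoglobulin genes, the Wild-type means were 465 ± 579 TPM for Ly6c2 and 31.3 ± 23.8 TPM for Cd68 (SD, n = 3 each). Ly6c2 was above Lyz2 in all libraries of both genotypes without the element, whereas the 2 overlapped in Mdmx-Tg and in Wild-type. Cd68, Ms4a6c and Ccr2 also overlapped in turn in Mdmx-Tg and in Wild-type.

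The transgene moved none of the 9 genes past the threshold in the edgeR fit; at an unadjusted p under 0.05 there were 0 members in Mdmx-Tg against Wild-type, 1 (Lyz2) in double-mutant against Pu.1-URE-/-, 0 on average and 1 (Lyz2) for the interaction. By edgeR, 0% of all genes were called for Mdmx-Tg against Wild-type (1576 had an unadjusted p under 0.05), 0% for double-mutant against Pu.1-URE-/- (1601), 0% for the transgene averaged over both backgrounds (2453) and 0% for its interaction with the element (871). DESeq2 called 329, 323, 996 and 194 genes in these 4 comparisons and limma-voom 0, 0, 1 and 0. Lyz2 had means of 298 ± 53.4 CPM in Mdmx-Tg and 185 ± 18.9 CPM in Wild-type (SD, n = 3 each; log2 change 0.69 ± 0.36, edgeR adjusted p = 0.519). Without the element it went the other way, at 369 ± 92.1 CPM in the double mutant and 771 ± 421 CPM in Pu.1-URE-/- (SD, n = 3 each; log2 change -1.06 ± 0.36, edgeR adjusted p = 0.406). The interaction was -1.75 ± 0.51 on the log2 scale, with an unadjusted p of 0.00514 in the edgeR fit and an adjusted p of 0.767; of the tools run, DESeq2 alone called it (adjusted p = 0.0343). For Ms4a6c, Mdmx-Tg against Wild-type gave a log2 change of 0.94 ± 0.73 (edgeR adjusted p = 0.718).

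Other genes of the monocyte and macrophage programme moved in both directions without the element. The lists below are read against 8.08% of all tested genes called higher and 3.81% called lower, or 1213 and 572 of 15012. Without the 3 doubted libraries these counts were 785 and 247 of 15309. Among 33 tested genes of a monocyte list, 9 rose and 5 fell (edgeR), with a median log2 change of 0.28. Those that rose included Fcer1g, the shared signalling chain of Fc receptors (2.75 ± 0.25, SE; adjusted p = 8.68e-05), the integrin chains Itgb2 and Itgal (2.51 and 2.55) and the receptor Fcgr3 (2.76). All of these are also used by neutrophils. Those that fell were the inhibitory receptor Cd300a (-5.49 ± 0.80; adjusted p = 0.00154), the transglutaminase F13a1, Csf1r, Ly86 and Cd14. Csf1r, the receptor for the macrophage growth factor, had 6, 3 and 7 reads in double-mutant and 0 in all Pu.1-URE-/- libraries. It had 14, 0 and 487 reads in Mdmx-Tg and 71, 4 and 60 in Wild-type libraries (adjusted p = 0.0452 over 6 against 6). Cd14, the lipopolysaccharide co-receptor, had 86 reads in double-mutant 2 and 0 in the other 5 libraries without the element, against 42 to 259 with it (adjusted p = 0.0463). Without the 3 doubted libraries, 7 genes of the list rose and 2 fell. With each of the 12 libraries left out in turn, 7 to 10 rose and 1 to 4 fell.

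Among 19 tested transcription factors of the lineage, 4 rose and 0 fell, with a median log2 change of -0.31. Those that rose were Gfi1 (3.80 ± 0.32, SE; edgeR adjusted p = 5.22e-05), Cebpa (2.93 ± 0.31; 0.000206), Cebpd (3.17 ± 0.73; 0.0186) and Bhlhe40 (1.68 ± 0.46; 0.0363). Gfi1 and Cebpa serve neutrophil formation. Irf8, which directs progenitors to monocytes and dendritic cells, had a log2 change of -1.73 ± 0.96 that did not pass (adjusted p = 0.284). The median log2 change of the list was 1.10 for Pu.1-URE-/- against Wild-type and -1.38 for double-mutant against Mdmx-Tg libraries. With each of the 12 libraries left out in turn, 2 to 4 transcription factors rose and 0 to 2 fell. DESeq2 called 5 of the list higher and 2 lower, beside 1638 higher and 1347 lower of all 15012 genes tested.

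Among 18 tested macrophage genes, 2 rose and 2 fell, with a median log2 change of -1.19. The adhesion molecule Vcam1 rose by 7.61 ± 0.60 on the log2 scale (SE; edgeR adjusted p = 3.91e-05), with 19202 to 130126 reads without the element and 105 to 656 with it. The iron exporter Slc40a1 also rose (1.93 ± 0.34; adjusted p = 0.00457). The lipid carrier Apoe fell by 2.71 (SE 0.33; adjusted p = 0.000518). The costimulatory molecule Cd86 had 0 reads in all 6 libraries without the element and 141 to 980 with it (adjusted p = 0.000520). Among 22 lysosomal genes, 5 rose and 3 fell, with a median of 0.21. Cd63, which is also a granule membrane protein, was among those that rose (2.42 ± 0.23; adjusted p = 0.000102). The cathepsins Ctss (-3.68 ± 0.91) and Ctsl (-1.33 ± 0.19; adjusted p = 0.00148) fell, as did the lipase Lipa (-0.90 ± 0.25). Without the 3 doubted libraries, 3 lysosomal genes rose and 1 fell. The 4 tested ligand genes, Cx3cl1, Ccl5, Ccl8 and Csf1, had edgeR adjusted p-values of 0.0517 to 0.835 and a median log2 change of -2.48, or -1.60 with genotypes at 0 set to 3 reads. Left out in turn, the 12 libraries gave 2 to 3 macrophage genes that rose and 2 to 3 that fell, and 2 to 5 lysosomal genes that rose and 1 to 3 that fell.

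**Figure D5:**
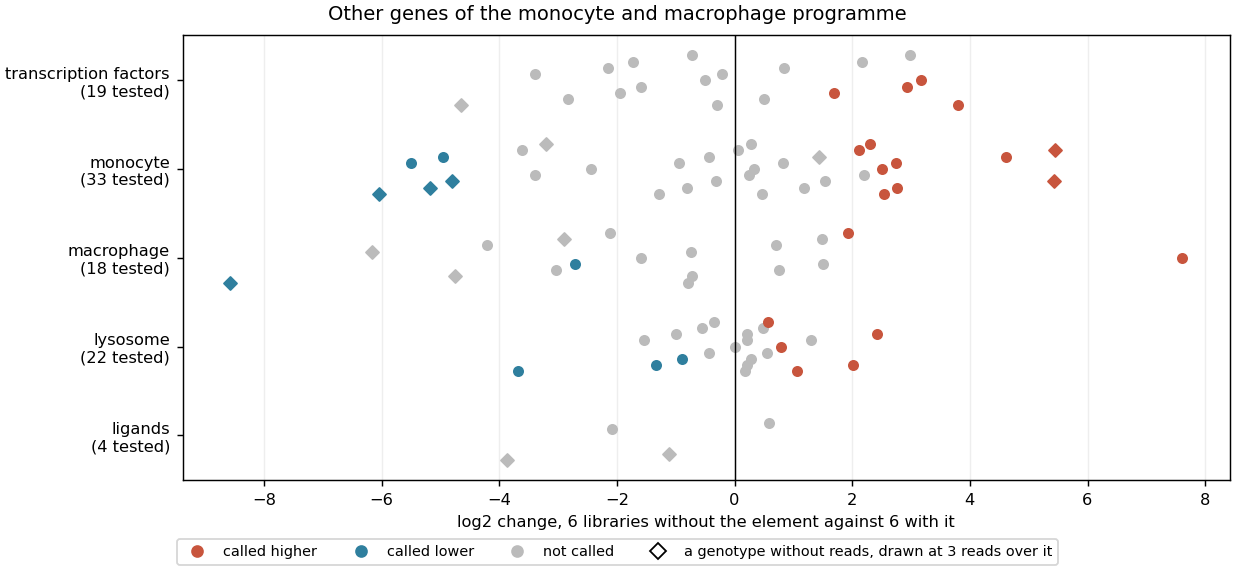
Log2 change without the Spi1 element (6 against 6 libraries) of every tested gene of 5 lists: transcription factors, monocyte, macrophage, lysosome and ligands. Coloured points passed the test; they lie on both sides of 0 in the monocyte (9 rose, 5 fell), macrophage (2 and 2) and lysosome (5 and 3) lists and above 0 among transcription factors (4 and 0).

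The 9 genes did not follow 1 pattern over the libraries. Across the 12 libraries, log2 CPM of Ms4a6c and Cd68 had a Pearson r of 0.821, and 0.389 once genotype means were removed; Ms4a6c and Ly6c2 had an r of -0.832, and -0.30 with those means removed. These values describe libraries that share genotypes and depth. Among all genes at a mean log2 CPM of at least 2, those with the highest r to Ms4a6c were Serpinf1 (0.975), Slc25a12 (0.963) and Ehd3 (0.959), but with genotype means removed these were 0.370, 0.235 and -0.07. For Cd68 they were Cd74 (0.929), Mob3b (0.923) and Ebi3 (0.909), which kept 0.828, 0.826 and 0.746. For Ly6c2 they were Hsd11b1 (0.946), Prom1 (0.938) and Megf9 (0.933), and for Lyz2 they were Ska2 (0.938), Rab32 (0.934) and Cdkn2d (0.924). Closest to Ccr2 was Stmn1 (0.897).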

How the data were processed

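Per the labels' protocols, Flk2-negative Lin-Sca-1+Kit+ cells were sorted from mouse bone marrow, and their mRNA was sequenced in pairs on a BGISEQ-500. Per the submitters' processing notes, FastQC, Salmon, DESeq2 and the builds mm10 and GRCm38 were used; versions, transcript index and strand setting are not given in the sources used here. The deposited tables, 1 per library, list for every transcript the estimated count that Salmon assigned to it, per the file headers; this expected count is not scaled and was not whole in 35.3% of values. They also list TPM, which the authors had Salmon compute, and lengths in bases.

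Of 116248 transcripts, 115995 (99.8%) were matched to GENCODE M21; the other 253 held 0.0379% to 0.0841% of a library's reads. Counts were summed over the transcripts of a gene, then rounded. The tests used edgeR 4.0.16 in R 4.3.3, with filterByExpr (minimum count 10, minimum total 15), TMM factors and a quasi-likelihood fit with 1 mean per genotype over 12 libraries, giving a common biological coefficient of variation of 0.796. Comparisons were adjusted by Benjamini-Hochberg over 15012 genes at a threshold of 0.05. The 6 against 6 comparison averages both backgrounds equally. CPM are TMM-scaled. Intervals on summed reads are 95% and, like the floor of 3 reads, cover counting error only. TPM compares genes. The edgeR step was also run on simulated counts. That outcome is not given here, and no result rests on it.

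Tried instead were DESeq2 1.42.0, limma-voom (limma 3.58.1), relative log expression factors, no filter, an offset for transcript length, a fit to only the compared groups, blocks for the replicate number and for the mouse-number series, Y-linked expression as a covariate, 264 immunoglobulin genes left out, 3 libraries doubted in earlier work left out (Mdmx-Tg/Pu.1-URE-/- 3, Mdmx-Tg 2 and Wild-type 1), and each library left out. The members, lists and alternatives were chosen with earlier results of these data known. Named beside the members are their copies, Spi1, Mdm4, Csf1r, Irf8, Cd14, up to 6 called genes per list by smallest p, the other genes behind counts of 5 or fewer, and the 3 genes of highest correlation with a member, of which the text gives a part; 1 gene that this rule picks is not reported here. Promoters are RefSeq's for GRCm38.p6. Adgre1 and Ms4a6d are named without one. Tables were built in Python 3.11.15 with pandas 2.3.3.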

Additional observations from a re-analysis of the deposited data

Results flagged for a closer look

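Lyz2 is listed here because its interaction of transgene and element had a low unadjusted p, 0.00514 in the edgeR fit, where 871 of 15012 genes had one under 0.05. Its log2 change without the element was 0.31 in double-mutant against Mdmx-Tg and 2.06 in Pu.1-URE-/- against Wild-type libraries, an interaction of -1.75 (SE 0.51). It did not pass adjustment over all 15012 genes (adjusted p = 0.767), while DESeq2 gave an adjusted p of 0.0343. The 3 double-mutant libraries had 314 to 475 CPM and the 3 Mdmx-Tg libraries 239 to 343 CPM. The 3 Pu.1-URE-/- libraries had 359.8 to 1201 CPM and the 3 Wild-type libraries 164 to 202 CPM.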

How the results depend on the processing

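Counts of members called kept within 1.5 times in 148 of 158 recomputed values. That total includes the transgene comparisons and the interaction, where 0 members were called in the edgeR fit and 0 again counts as kept. A small loss of calls can also pass this rule. Over 6 against 6, with the 12 libraries left out in turn, the call of Ly6c2 remained in 5 fits and that of Cd68 in 6. DESeq2 gave 2 for double-mutant against Mdmx-Tg (1 in the edgeR fit) and 1 for the interaction (0 in the edgeR fit); over all genes it called 1273 against 348 and 194 against 0. Over 6 against 6 libraries, 2 of 4 calls remained with Y-linked expression as a covariate and 2 with the 3 doubted libraries left out, beside 1178 and 1032 genes called in all against 1785. Leaving out single libraries gave 1 to 3 calls for Pu.1-URE-/- against Wild-type, 1 to 2 for double-mutant against Mdmx-Tg, 2 to 5 for 6 against 6, and 0 in each transgene comparison. The covariate ended the calls of Ly6c2 (adjusted p = 0.0724) and Cd68 (0.0631), and the doubted libraries those of Lyz2 (0.0980) and Cd68 (0.0600). In Pu.1-URE-/- against Wild-type the call of Lyz2 ended without the doubted libraries (0.0562). Ly6c2 was called there by limma-voom (0.0354) and Cd68 by DESeq2 (0.00126). Ms4a6c passed in all 3 element comparisons under every alternative run.

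Signs turned only among values that were not called in the edgeR fit. For Pu.1-URE-/- against Wild-type, Klf4 gave 0.47 with the replicate block and 0.31 without the doubted libraries, and Cx3cr1 gave 0.42 by limma-voom and 6.89 without the doubted libraries. For double-mutant against Mdmx-Tg, Mpeg1 gave 4.61 with the mouse-number series as a block and 6.53 without the doubted libraries. Over 6 against 6, Mpeg1 gave 1.52 without the doubted libraries. With single libraries left out, the log2 change spanned -0.72 to 0.40 for Klf4 and -5.24 to 6.88 for Cx3cr1 in Pu.1-URE-/- against Wild-type, -9.36 to 5.94 for Mpeg1 in double-mutant against Mdmx-Tg, -6.74 to 1.33 for Mpeg1 over 6 against 6, and -0.38 to 0.048 for Lyz2 under the averaged transgene. The cause was not tested. TPM without immunoglobulin genes moved 5 of 36 group means by more than 1 SD of the 3 libraries, Ly6c2 in Wild-type to 465 TPM among them.

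Replicate numbers did not pair the libraries: deviations of same-numbered libraries correlated at -0.153 to 0.0856. The replicate block left 2, 1 and 4 members called in the 3 element comparisons. The wide spread limits what 3 libraries can show, and counts of 0 limit Klf4, Cx3cr1, Adgre1 and Mpeg1.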
